A study of Mus musculus with 31 samples.

Results

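The genes described here are 10 RNA-binding protein genes of mouse sensory neurons: the 4 ELAV-like genes Elavl1, Elavl2, Elavl3 and Elavl4, the FMRP family genes Fmr1, Fxr1 and Fxr2, the Nova genes Nova1 and Nova2, and Rbfox3. They are listed by their symbols, and the listing itself applies no measured value or threshold. All 10 were found among the 55536 gene identifiers of the deposited tables. Because the families were picked with earlier results of these data known, the tests below describe these libraries and are not independent evidence about the families.

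The data come from translating ribosome affinity purification (TRAP), in which ribosomes that carry a tagged subunit are pulled out of a tissue with an antibody and the mRNA bound to them is sequenced. The tag was L10a-eGFP, a ribosomal protein joined to a green fluorescent protein, in mice that carry it as a floxed allele. In the Cre libraries the mice also carried Nav1.8-Cre, which switches the tag on in cells that have used the promoter of Scn10a, the gene of the Nav1.8 sodium channel of pain-sensing neurons. The control libraries came from L10a-eGFP-fl/fl mice (spelled L10a-eGP-fl/fl in the sample titles) without Cre. They therefore hold the RNA that the pulldown recovers when the tag is not switched on. Somas (cell bodies) were collected as lumbar dorsal root ganglia, peripheral axons as sciatic nerve, and central axons as lumbar dorsal root together with the spinal cord. Central axons and a first set of somas form batch 1 with 16 libraries, and peripheral axons and a second set of somas form batch 2 with 15. The 8 groups hold 4 libraries each, apart from the peripheral axon controls with 3. The labels call the libraries biological replicates without saying whether each came from 1 animal or from a pool, so the tests measure the spread between these libraries. Age and sex are not given in the labels used here. A library of axons from cord or nerve also holds whatever RNA of the surrounding tissue stays with the beads, and in such bulk samples fewer cells of a type and less RNA per cell cannot be told apart.

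RNA-binding proteins decide how an mRNA is spliced, how long it lasts, where in the cell it goes and when it is translated. ELAV-like (Hu) proteins bind U-rich stretches, mostly in 3′ untranslated regions, and protect the mRNAs they bind: HuB (Elavl2), HuC (Elavl3) and HuD (Elavl4) are made mainly in neurons, where HuD is known for stabilising mRNAs of axon growth such as Gap43, while HuR (Elavl1) is made in nearly all cells. FMRP (Fmr1), whose loss causes fragile X syndrome, represses translation of mRNAs that travel into dendrites and axons, and Fxr1 and Fxr2 are its close relatives. Nova1 and Nova2 are splicing factors of central nervous system neurons that bind clusters of YCAY. Rbfox3, the antigen known as NeuN, is a splicing factor used as a marker of mature neurons.

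All 10 are protein-coding in the GENCODE M21 annotation of GRCm38. Elavl1 is ENSMUSG00000040028, chromosome 8, 4285382 to 4325413, minus strand. Elavl2 is ENSMUSG00000008489, chromosome 4, 91250763 to 91400785, minus strand, and Elavl4 lies on the same chromosome (ENSMUSG00000028546, chromosome 4, 110203722 to 110351909, minus strand). Elavl3 is ENSMUSG00000003410, chromosome 9, 22015005 to 22052023, minus strand. Fmr1 is ENSMUSG00000000838, chromosome X, 68678541 to 68717963, plus strand. Fxr1 is ENSMUSG00000027680, chromosome 3, 34019943 to 34070322, plus strand. Fxr2 is ENSMUSG00000018765, chromosome 11, 69632990 to 69653297, plus strand. Nova1 is ENSMUSG00000021047, chromosome 12, 46694517 to 46818929, minus strand. Nova2 is ENSMUSG00000030411, chromosome 7, 18925888 to 18965319, plus strand. Rbfox3 is ENSMUSG00000025576, chromosome 11, 118489762 to 118911597, minus strand. Of the exon length of Nova2, 31.7% lies opposite exons of Gm26821, an antisense gene. Whether the counting used strand is not given in the sources used here, so reads of that stretch cannot be assigned to Nova2 or Gm26821. For the other members, at most 3.72% of the exon length is shared with another gene on either strand.

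Library totals ran from 3601399 to 19637292 counts, so 3 counts, taken here as the floor of detection, correspond to between 0.153 and 0.833 CPM, the unit in which each count is divided by its library total and scaled to the usual common size. Scn10a, the gene whose promoter drives Cre, ran from 45.1 to 421 CPM in the central axon Cre libraries and from 0 to 29.9 in their controls, without overlap. The edgeR test described below did not call this difference (log2 fold change 4.52, standard error 1.72, adjusted p 0.818). In peripheral axons (Cre 42.1 to 304, control 0 to 127 CPM) and in both sets of somas its ranges overlapped between Cre and control. Control libraries were more uneven than Cre libraries. No Cre library had a member at 0, whereas 2 of 40 values were 0 in the central axon controls, 4 of 40 in the batch 1 soma controls, 4 of 30 in the peripheral axon controls and 1 of 40 in the batch 2 soma controls. The median coefficient of variation over the 10 members was 28.6% in central axon, 26.7% in batch 1 soma, 60.2% in peripheral axon and 28.7% in batch 2 soma Cre libraries. In the matching controls it was 58.9%, 94.7%, 94.4% and 39.3%.

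Within the Cre somas, the members fell into 3 tiers of level. Set on a common scale per kilobase of exon (CPM per kb, mean ± SD, n = 4), the upper tier in the batch 1 Cre somas held Rbfox3 (106 ± 23.2), Elavl4 (81.1 ± 8.54), Elavl3 (55.95 ± 14.3), Fxr2 (46.8 ± 3.40) and Elavl2 (29.9 ± 19.8). The middle tier held Fxr1 (6.88 ± 1.90), Fmr1 (5.04 ± 1.28) and Elavl1 (3.18 ± 1.47). Nova2 (0.845 ± 0.278) and Nova1 (0.406 ± 0.197) were lowest. In that order, the ranges of neighbours did not overlap between Elavl4 and Elavl3, between Elavl2 and Fxr1 and between Elavl1 and Nova2. All other neighbours overlapped. The batch 2 Cre somas held the same genes in each tier, with Elavl4 (106 ± 11.03) and Rbfox3 (99.6 ± 35.8) at the top and overlapping, and with Nova2 (0.476 ± 0.221) above Nova1 (0.149 ± 0.0432) without overlap. The Cre ganglion libraries thus carried neuronal Hu mRNAs, NeuN and Fxr2 at high level and Nova mRNA at low level. These tiers were not set apart in the soma controls. All neighbours in the order overlapped in the batch 1 controls. In the batch 2 controls Fxr2 (20.8 ± 8.74) overlapped Fxr1 (18.1 ± 7.29), and Elavl1 (4.27 ± 1.35) overlapped Nova1 (1.59 ± 2.02).

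In the axon libraries the tiers drew together. In the central axon Cre libraries Rbfox3 (73.5 ± 17.9), Elavl4 (59.1 ± 25.3), Elavl3 (46.7 ± 14.7) and Fxr2 (37.4 ± 6.48) still lay apart from the rest, and Nova1 (13.2 ± 3.38) and Nova2 (7.93 ± 3.65) stood among the middle genes, between Elavl2 (15.8 ± 3.80) and Fmr1 (7.68 ± 3.92). Elavl1 (5.42 ± 2.29) and Fxr1 (4.61 ± 0.857) were lowest there. In the peripheral axon Cre libraries the first 8 members in the order, from Elavl4 (38.6 ± 20.9) and Rbfox3 (37.7 ± 37.9) through Fxr2 (20.6 ± 9.97), Elavl3 (17.8 ± 16.1), Fmr1 (15.1 ± 10.01), Elavl1 (13.99 ± 5.44) and Elavl2 (12.97 ± 6.29) to Fxr1 (11.3 ± 2.90), each overlapped the next. Only Nova1 (0.819 ± 0.887) and Nova2 (0.511 ± 0.528) lay below them without overlap. The plot of levels by group shows every library.

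**Figure D1:**
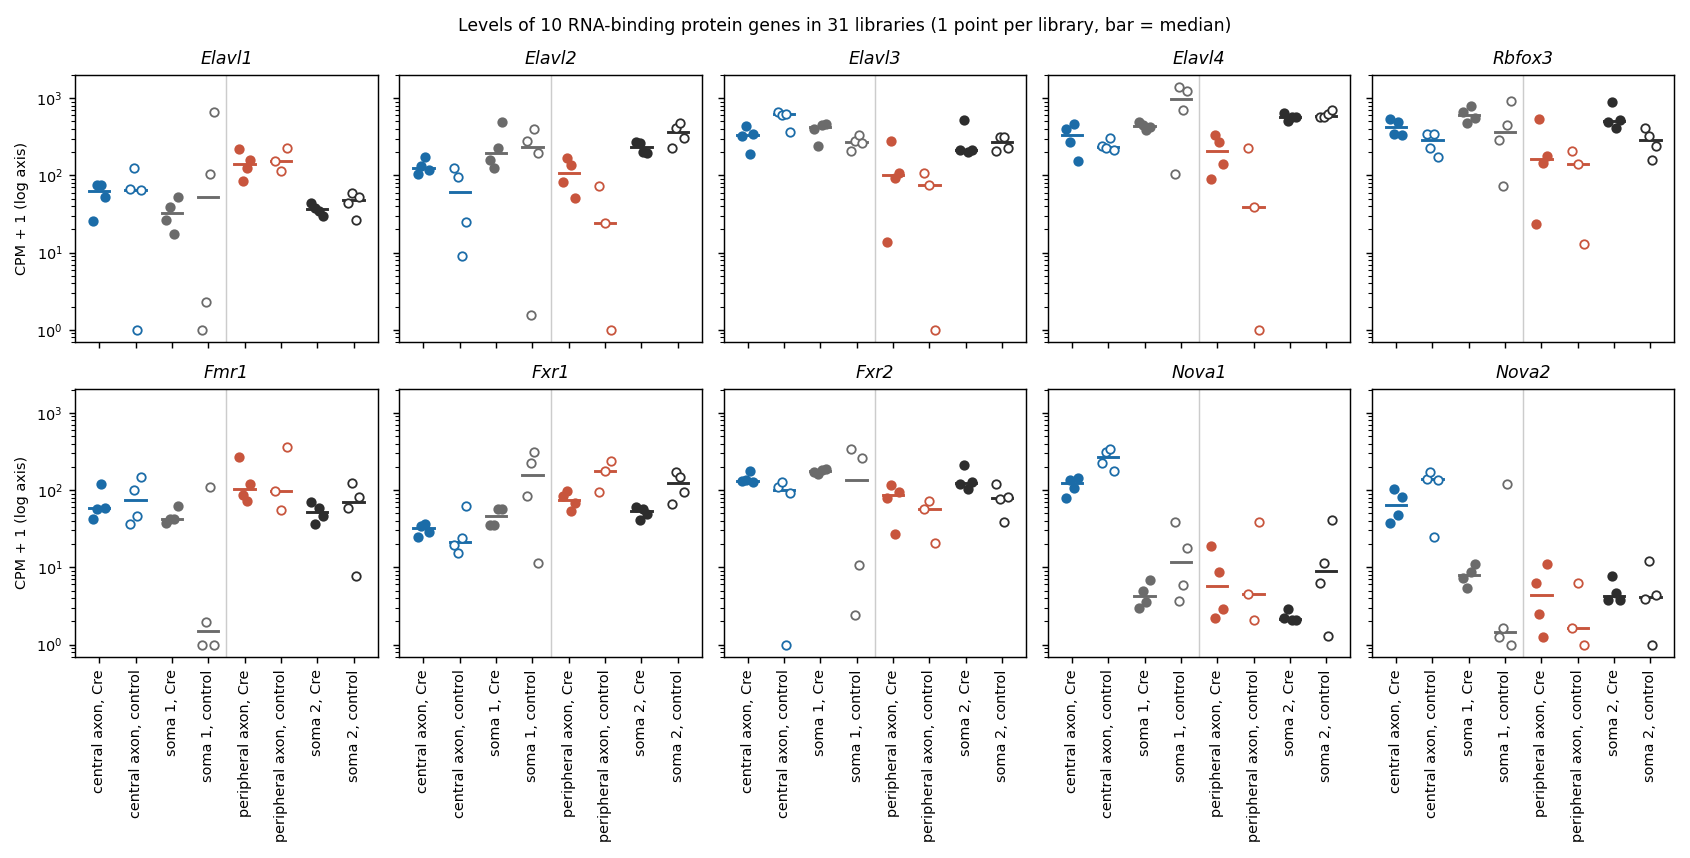
Level of each of the 10 members in all 31 libraries, as CPM plus 1 on a log axis, with 1 panel per gene and 1 point per library. Filled points are Cre libraries, open points control libraries and bars group medians. Nova1 and Nova2 are high in central axon libraries of either genotype, and control points spread more widely than Cre points.

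The first comparison set central axon Cre libraries against the batch 1 Cre somas, and asks which members differ in level between the central branch and the cell body. Nova1 and Nova2 were far higher in the central axon libraries, Elavl2 was lower, and the other 7 members did not pass the test. Changes are log2 fold changes from edgeR's quasi-likelihood fit to all genes, each printed with its standard error after ±, and a gene is called at a Benjamini-Hochberg adjusted p under 0.05 over all genes tested. In this comparison 13.7% of the 14480 genes tested were called, 8.63% higher and 5.11% lower, against 3 of the 10 members, 2 higher and 1 lower. The median log2 fold change was -0.74 over the members and 0.05 over all genes.

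Nova1 measured 76.98, 136, 106 and 141 CPM in the 4 central axon Cre libraries (mean 115 ± 29.6, SD). In the 4 batch 1 Cre somas it measured 1.97, 3.90, 2.50 and 5.82 CPM. Every central value lay far above every soma value, and Nova1 rose by 4.59 ± 0.39 (edgeR adjusted p 3.73e-05) on the log2 scale. Nova2 measured 36.2, 103, 47.02 and 79.5 CPM in central axons. In the same somas it measured 6.32, 4.38, 7.68 and 9.92 CPM. The groups again did not overlap, and the log2 fold change was 2.76 ± 0.42 (edgeR adjusted p 0.00162). Both calls were kept when any 1 of the 8 libraries was left out. They were lost when the 4 groups of the batch were fitted together with the more variable controls, with adjusted p 0.1002 for Nova1 and 0.985 for Nova2.

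The central axon controls, whose mice lack Cre, carried Nova mRNA too. Nova1 measured 225, 312, 339 and 174 CPM in them, all above the 4 Cre libraries. Nova2 measured 139, 169, 23.6 and 134 CPM there, 3 of them above the Cre libraries and control 3 below them. Markers of spinal cord neurons moved with this result: the summed level of 8 such genes ran from 119.7 to 374 CPM in the central axon Cre libraries, 191 to 732 in their controls and 1.36 to 8.97 in the batch 1 Cre somas. Gad2, Slc6a5, Slc32a1, Chat and Mnx1 were at 0 in those somas, and all 7 spinal neuron markers tested were called higher in central axons. Of 6 astrocyte markers 5 were called higher, and of 4 oligodendrocyte markers tested 3 were. The part of these cells in the Nova levels was not tested.

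Of the neuronal ELAV-like genes, Elavl2 was called lower in central axons, and Elavl3 and Elavl4 were not called. Elavl2 measured 102, 133, 175 and 115 CPM in central axons. It measured 157, 124, 226 and 487 CPM in the somas. The ranges overlapped, since axon library 3 lay above 2 of the somas and library 2 above 1, and the log2 fold change was -1.34 ± 0.40 (edgeR adjusted p 0.0408). That call is fragile. It was lost without central axon Cre replicate 2 (adjusted p 0.104), 3 (0.0648) or 4 (0.0983), or soma replicate 3 (0.0735) or 4 (0.0727), and without soma replicate 4 the fold change was -0.88. It was also lost with library size as the only scaling (adjusted p 0.136), with the 4 groups of the batch in 1 fit, and in a fit blocked on replicate number (0.0587).

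Elavl4 measured 396, 269, 457 and 151 CPM in central axons. In the somas it measured 491, 452, 383 and 421 CPM. Axon libraries 1 and 3 reached the soma range on this scale and libraries 2 and 4 lay below it (log2 fold change -0.87 ± 0.37, edgeR adjusted p 0.140, not called). Elavl3 measured 318, 433, 188 and 348 CPM in central axons and 399, 242, 444 and 458 in somas. Its ranges overlapped, and the fold change of -0.71 ± 0.35 (edgeR adjusted p 0.192) was not called. Elavl1, the HuR gene, measured 24.5, 74.98, 73.97 and 51.1 CPM in central axons against 25.9, 37.7, 16.5 and 51.7 in somas, again overlapping (log2 fold change 0.34 ± 0.40, edgeR adjusted p 0.614).

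In the FMRP family no member was called in central axons. Fmr1 measured 41.4, 56.7, 120.5 and 56.95 CPM there and 36.5, 40.8, 41.4 and 62.1 in somas. Apart from axon library 3 these values intermingle (log2 fold change 0.16 ± 0.35, edgeR adjusted p 0.799), and without that library the sign of the fold change turned (-0.25). Fxr1 measured 23.4, 33.6, 35.8 and 27.9 CPM in central axons and 33.97, 34.6, 55.5 and 56.2 in somas, with 1 axon library above the lowest somas (log2 fold change -1.03 ± 0.33, edgeR adjusted p 0.0516). Fxr2 measured 128, 133, 177 and 125 CPM in central axons against 172, 160.1, 184 and 189 in somas, with axon library 3 inside the soma range (log2 fold change -0.77 ± 0.27, edgeR adjusted p 0.0764). DESeq2, run as an alternative on the same counts, called Fxr1 (log2 fold change -0.99, adjusted p 0.0166) and Fxr2 (-0.73, adjusted p 0.0188) lower.

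Rbfox3, the NeuN gene, measured 535, 345, 498 and 333 CPM in central axons and 652, 475, 789 and 555 CPM in somas. Axon libraries 1 and 3 lay inside the soma range and libraries 2 and 4 below it. The log2 fold change of -0.97 ± 0.35 (edgeR adjusted p 0.0799) was not called. Once libraries were scaled by TMM, the normalisation used in the fit, the ranges of Elavl4, Fxr1, Fxr2 and Rbfox3 no longer overlapped between central axons and somas. All 4 were lower in axons, and none of the 4 was called. The share of all genes tested whose ranges do not overlap is not given here, so this only describes these 4 genes. Rbfox3 passed the threshold without central axon Cre replicate 1 (-1.27, adjusted p 0.0295), with DESeq2 (adjusted p 0.0305) and in a fit blocked on replicate number (0.0387). For comparison, Scn10a itself measured 421, 105, 123 and 45.1 CPM in central axons and 312, 461, 362 and 505 in somas (log2 fold change -1.57 ± 0.58, edgeR adjusted p 0.0869), and library 1, the highest for Scn10a, was also the highest of the 4 for Rbfox3.

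The second comparison set peripheral axon Cre libraries against the batch 2 Cre somas. Elavl1 and Fmr1 were higher in the sciatic nerve libraries, Elavl2 and Elavl4 were lower, and 6 members did not pass. Here 31.2% of the 15467 genes tested were called, 18.7% higher and 12.5% lower, so a count of 4 of 10 members, 2 in each direction, is close to the share over all genes. The median log2 fold change was -0.61 over the members and -0.03 over all genes.

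Elavl1 measured 217, 83.5, 124 and 156 CPM in the 4 peripheral axon Cre libraries. It measured 43.1, 37.01, 33.7 and 28.7 CPM in the 4 batch 2 Cre somas. Every nerve value exceeded every soma value, and Elavl1 rose by 1.8 ± 0.28 (edgeR adjusted p 0.000838) on the log2 scale, a call kept in each leave-one-out fit and each other setting. The peripheral controls held as much of it (154, 113 and 223 CPM).

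Of the neuronal Hu genes, Elavl4 and Elavl2 were called lower and Elavl3 was not called. Elavl4 measured 88.3, 330, 273 and 141 CPM in peripheral axons. It measured 651, 507, 568 and 567 CPM in somas. No axon library reached the soma range, and Elavl4 fell by 1.61 on the log2 scale (log2 fold change -1.61 ± 0.42, edgeR adjusted p 0.0141). That call was kept without any 1 library and lost when the 4 groups of the batch shared 1 fit (adjusted p 0.243). Elavl2 measured 80.2, 165, 136 and 49.9 CPM in peripheral axons against 266, 265, 199 and 195 in somas. It too did not overlap and fell (log2 fold change -1.25 ± 0.38, edgeR adjusted p 0.0275). The Elavl2 call was lost without soma replicate 5 (adjusted p 0.0596), 6 (0.0599) or 7 (0.0523), with fold changes between -1.31 and -1.21. It was also lost when the 4 groups of the batch shared 1 fit (adjusted p 0.297).

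Elavl3 and Rbfox3 were uneven between the peripheral axon libraries. Elavl3 measured 12.9, 276, 92.7 and 107 CPM there and 215, 529, 203 and 214 in somas (log2 fold change -1.39 ± 0.69, edgeR adjusted p 0.146). Rbfox3 measured 22.9, 535, 143 and 177 CPM there and 495, 883, 413 and 528 in somas (log2 fold change -1.54 ± 0.69, edgeR adjusted p 0.112). For both genes axon library 2 lay in the soma range while the other 3 lay below it, and neither was called by the edgeR fit. With no low-count filter Rbfox3 passed (-1.69, adjusted p 0.0491). Library 2 was also the highest of the 4 for Scn10a (42.1, 304, 116 and 156 CPM) and Elavl4, and library 1 was the lowest for Scn10a and for all 3 genes. Without library 2, Elavl3 (-2.29, adjusted p 0.0277), Rbfox3 (-2.60, adjusted p 0.0118) and Fxr2 (-1.43, adjusted p 0.0225) were called lower and Nova1 higher (2.49, adjusted p 0.0364).

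Within the FMRP family the 3 genes did not move together. Fmr1 measured 266, 84.1, 70.8 and 119.6 CPM in peripheral axons and 68.9, 35.2, 57.1 and 45.1 in somas. All 4 nerve values lay above the somas, library 1 most of all, and Fmr1 rose (log2 fold change 1.13 ± 0.37, edgeR adjusted p 0.0386). Without peripheral axon Cre replicate 1 the fold change dropped to 0.57 (adjusted p 0.118). The call was also lost without peripheral replicate 4 (0.0719) and without soma replicate 5 (0.0658), 6 (0.112), 7 (0.0695) or 8 (0.115). RLE scaling (0.0544), the fit without a low-count filter (0.0629) and the fit of all 4 groups (0.366) ended it as well. The peripheral controls spanned its whole range (95.1, 53.5 and 363 CPM).

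Fxr1 measured 81.7, 96.3, 52.2 and 66.9 CPM in peripheral axons and 59.4, 40.2, 56.1 and 48.3 in somas, overlapping and not called (log2 fold change 0.34 ± 0.27, edgeR adjusted p 0.360). Fxr2 measured 77.3, 115, 26.1 and 92.1 CPM in peripheral axons and 118, 208, 103 and 125 in somas. Its axon values lay mostly below the somas, and it missed the threshold (log2 fold change -1.05 ± 0.39, edgeR adjusted p 0.0634). It passed with DESeq2 (adjusted p 0.0266), RLE scaling (0.0393) or no low-count filter (0.0355).

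Both Nova genes were low on this side. Nova1 measured 18.00, 1.20, 7.57 and 1.91 CPM in peripheral axons, from 11 to 74 counts, and 1.19, 1.86, 1.07 and 1.09 in somas (log2 fold change 2.19 ± 0.89, edgeR adjusted p 0.0818). Nova2 measured 5.35, 1.46, 0.244 and 10.1 CPM in peripheral axons, with 1 count in library 3, and 2.75, 6.68, 3.72 and 2.80 in somas. Its fold change (log2 fold change -0.18 ± 0.89, edgeR adjusted p 0.893) had no stable sign: it was 0.10 with library size as the only scaling. Neither Nova gene was called by edgeR, while DESeq2 called Nova1 higher (2.10, adjusted p 0.0305). The comparison plot shows both sets of fold changes side by side.

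**Figure D2:**
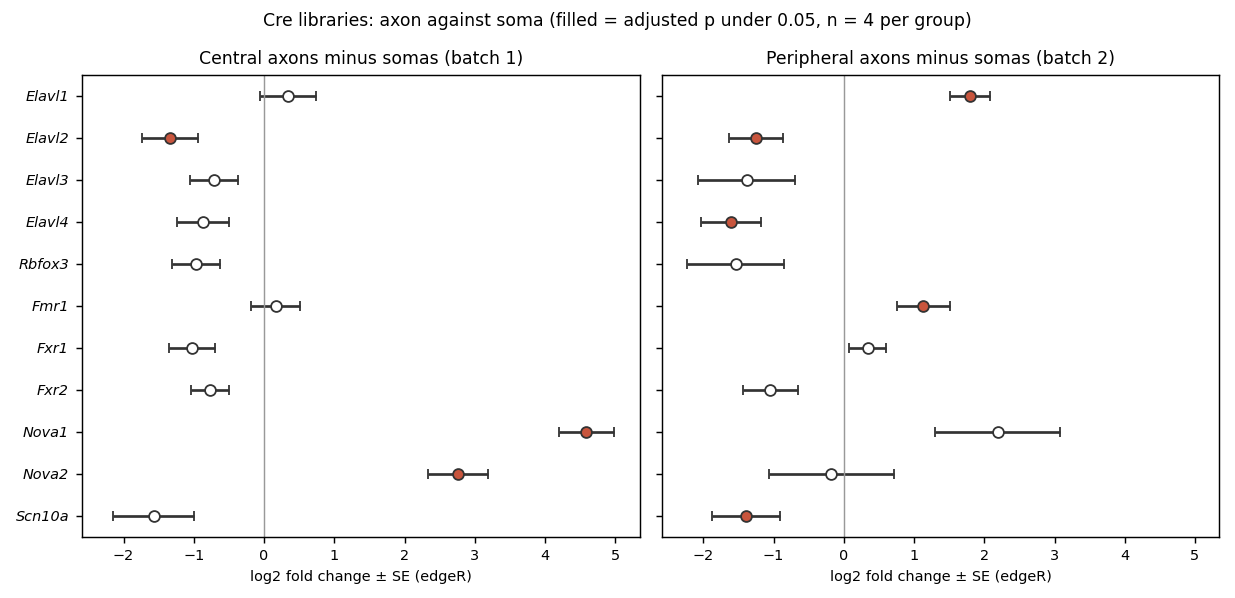
Log2 fold change with its standard error for the 10 members and Scn10a, central axons minus batch 1 somas and peripheral axons minus batch 2 somas, Cre libraries only, 4 per group. Filled points have an edgeR adjusted p under 0.05. Nova1 (4.59) and Nova2 (2.76) lie far to the right in central axons, and Elavl1 (1.8) and Elavl4 (-1.61) lie on opposite sides in peripheral axons.

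Levels of RNA from other cells of the nerve moved with the peripheral results. The summed level of 10 Schwann cell markers ran from 10530 to 28680 CPM in the peripheral axon Cre libraries, 8709 to 16140 in their controls and 440.3 to 647 in the batch 2 Cre somas, and all 10 were called higher in axons. The 6 fibroblast markers (3816 to 6686 against 173 to 364 CPM), the 4 muscle markers tested of 5 (620.5 to 2440 against 15.5 to 80.00) and the 4 endothelial markers (50.8 to 141 against 4.29 to 11.4) were all called higher too. None of these markers was at 0 in all 4 somas. The general neuron markers ran lower, from 3067 to 10730 CPM in axons against 18170 to 20660 in somas, with 9 of 10 called lower, and so did the nociceptor markers (1123 to 4492 against 7468 to 9272 CPM), with 7 of 10 called lower. The part of these cells in the rise of Elavl1 and Fmr1 and in the fall of Elavl2 and Elavl4 was not tested.

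**Figure D3:**
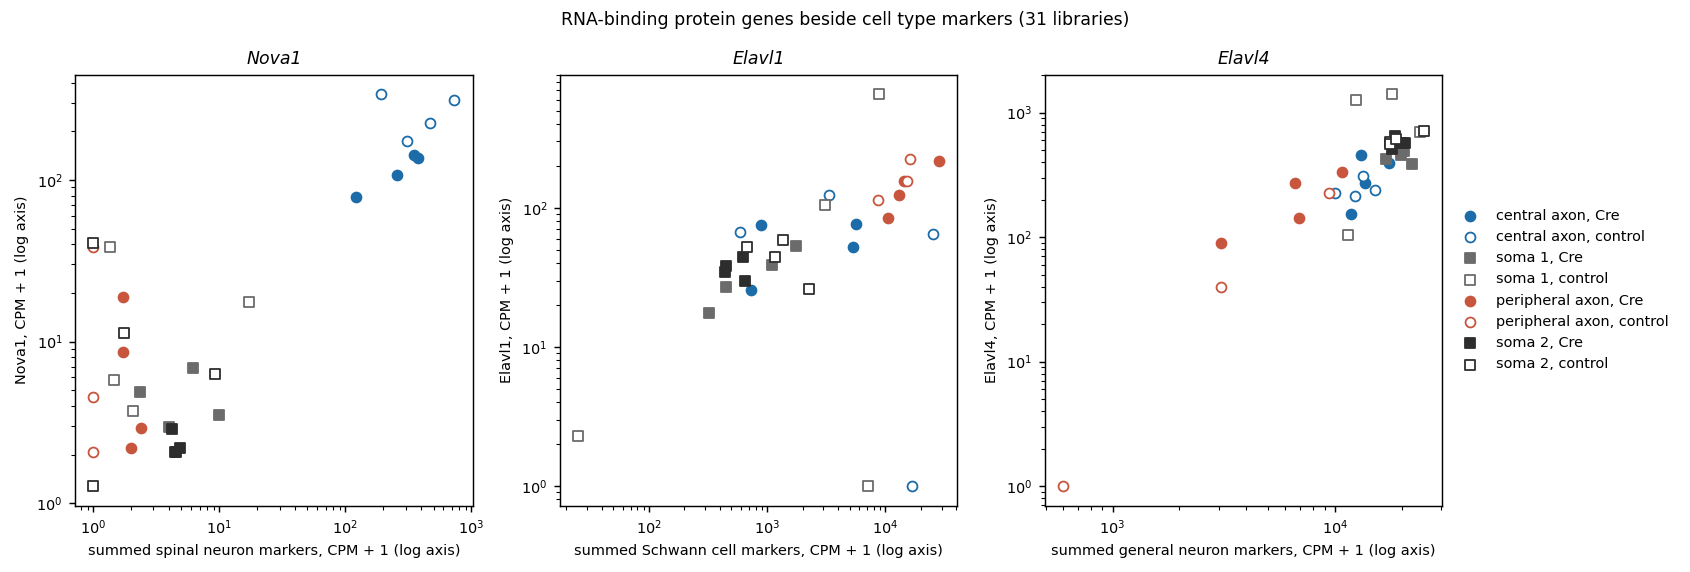
Member levels against summed marker levels in the 31 libraries, as CPM plus 1 on log axes: Nova1 against spinal neuron markers, Elavl1 against Schwann cell markers and Elavl4 against general neuron markers. Filled points are Cre and open points control libraries. Central axon libraries of both genotypes are high for Nova1 and spinal neuron markers, and peripheral axon libraries are high for Schwann cell markers at Elavl1 levels of 83.5 CPM and above. Central axon controls 3 and 4 have Schwann cell marker sums of 17010 and 25450 CPM with Elavl1 at 0 and 63.7 CPM.

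The third comparison asked whether the axon-to-soma difference itself differs between libraries of the 2 branches, RNA carried over from each tissue included. Each branch was set against the Cre somas of its own batch, since axon type and batch coincide, and the difference of the 2 log2 fold changes was tested in 1 fit of the 16 Cre libraries. Of the 16725 genes tested 13.1% were called, 7.2% higher in the central branch and 5.88% lower, against 2 of the 10 members, Nova1 and Nova2, both higher. The median was 0.60 over members and 0.26 over all genes.

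Nova1 differed by 2.58 ± 0.84 (edgeR adjusted p 0.0477) on the log2 scale. Its call rests on a narrow margin: it was lost in 12 of the 16 fits that left out 1 library, namely each central axon replicate, soma replicates 1, 2 and 3 of batch 1, peripheral axon replicate 4 and each soma of batch 2. The highest adjusted p among these was 0.0914, without soma replicate 6, and the fold change stayed between 2.26 and 2.71 in the 12. RLE scaling (0.0591), library size alone (0.0503) and the fit of all 8 groups (0.763) also ended the call.

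Nova2 differed by 3.13 ± 0.91 (edgeR adjusted p 0.0281). It was lost in 6 of the 16 such fits: without central axon replicates 2 (adjusted p 0.0632) or 4 (0.0561), batch 1 soma replicates 1 (0.0512) or 2 (0.0633), or batch 2 soma replicates 6 (0.0632) or 7 (0.0572). The fit of all 8 groups gave 0.888. The spinal neuron markers given above are in the same libraries. All 7 tested had positive fold changes in this comparison, with a median log2 fold change of 9.55, and 2 were called higher. All 6 astrocyte markers had positive fold changes too, and 4 were called higher. The part of these cells in the Nova difference was not tested.

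Of the other members, Elavl1 (log2 fold change -1.31 ± 0.51, edgeR adjusted p 0.0952) and Fxr1 (log2 fold change -1.19 ± 0.41, edgeR adjusted p 0.0579) were lower in the central branch relative to soma without passing the threshold. Fxr1 passed with RLE scaling (adjusted p 0.0413) and DESeq2 (0.00588), and without batch 1 soma replicate 1 (0.0454) or 2 (0.0437) or peripheral axon replicate 3 (0.0445). Elavl1 passed with DESeq2 (0.0447) and without batch 1 soma replicate 3 (0.0399). For Elavl4 the difference was 0.89 ± 0.57 (edgeR adjusted p 0.315), for Elavl3 0.86 ± 0.80 (edgeR adjusted p 0.509) and for Rbfox3 0.75 ± 0.79 (edgeR adjusted p 0.570). Fmr1 gave -0.81 ± 0.53 (edgeR adjusted p 0.329), Fxr2 0.45 ± 0.48 (edgeR adjusted p 0.572) and Elavl2 0.081 ± 0.56 (edgeR adjusted p 0.957). A fall of Elavl4 called in the peripheral branch and not in the central one is thus not shown to differ between them.

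Cre libraries were then set against their own controls, to ask which members the tagged pulldown enriched over the untagged one. In none of the 4 tissues was a member called by edgeR: 0 of 10 in central axons, where 0.0141% of 14189 genes were called, 0 of 10 in peripheral axons (0.0% of 13970), 0 of 10 in batch 1 somas (4.42% of 11667) and 0 of 10 in batch 2 somas (0.0% of 15280). At an unadjusted p under 0.05 the counts over all genes were 684, 514, 1752 and 2503, and those of the members were 2, 1, 1 and 4. DESeq2 called no member in either axon, Fxr1 lower in batch 1 Cre somas (adjusted p 0.0279), where the controls were uneven, and Nova1 (-3.21, adjusted p 0.0263) and Rbfox3 (1.24, adjusted p 0.0413) in batch 2 somas.

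In central axons the 2 members with an unadjusted p under 0.05 had lower values in Cre libraries, Nova1 (log2 fold change -1.15 ± 0.35, unadjusted p 0.00696, edgeR adjusted p 0.447) and Elavl3 (log2 fold change -0.77 ± 0.33, unadjusted p 0.0405, edgeR adjusted p 0.986). Elavl3 measured 659.5, 611, 629 and 363 CPM in the controls against the Cre values given above, with control 4 inside the Cre range. Rbfox3 measured 342, 225, 345 and 170 CPM in the controls, 2 of them inside the Cre range and 2 below it. Elavl4 measured 239, 224, 308 and 214 CPM in the controls, all inside the Cre range. Elavl1, Fmr1, Fxr1, Fxr2 and Elavl2 overlapped between genotypes, and control library 3 held no count of Elavl1 or Fxr2.

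In peripheral axons only Fxr1 had an unadjusted p under 0.05, with 91.98, 174 and 236 CPM in the 3 controls against 52.2 to 96.3 in Cre libraries (log2 fold change -1.09 ± 0.42, unadjusted p 0.0266, edgeR adjusted p 0.9999). The neuronal genes were uneven in the controls. Elavl4 measured 226, 38.5 and 0 CPM, Elavl3 105, 74.3 and 0 and Elavl2 73.05, 23.3 and 0. Control replicate 4 held no count of any of the 3 and none of Scn10a, while control replicate 1 held all of them at levels inside the Cre range. Rbfox3 measured 206, 140.4 and 11.8 CPM in the same order of libraries.

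In batch 2 somas 4 members had an unadjusted p under 0.05. Rbfox3 measured 413, 328, 159 and 240.3 CPM in the controls against 495, 883, 413 and 528 in the Cre libraries (log2 fold change 1.27 ± 0.37, unadjusted p 0.00488, edgeR adjusted p 0.121). Fxr2 measured 118, 76.2, 37.8 and 80.8 CPM in the controls (log2 fold change 1.07 ± 0.39, unadjusted p 0.0176, edgeR adjusted p 0.200). Fxr1 was lower in Cre libraries than in its controls (64.7, 168, 148 and 93.7 CPM; log2 fold change -0.93 ± 0.34, unadjusted p 0.0171, edgeR adjusted p 0.199), and Nova1 was too (5.31, 10.4, 0.278 and 39.6 CPM; log2 fold change -3.17 ± 1.16, unadjusted p 0.0184, edgeR adjusted p 0.204). Without control replicate 5, Rbfox3 (adjusted p 0.0266), Fxr2 (0.0448) and Fxr1 (0.0387) passed the threshold, and without control replicate 7 Nova1 did (0.0337). Elavl4 measured 576, 564, 615 and 709.5 CPM in these controls, within or above its Cre range.

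In batch 1 somas the controls were so uneven that no fold change is given here for single members. Elavl4 measured 102, 1408, 696 and 1253 CPM in the 4 controls, Fxr1 83.5, 225, 310.3 and 10.3 and Rbfox3 291, 72.5, 446 and 923. The scaling factor of control replicate 3 was 0.0547 against 1.30 to 1.57 in the other 3. Fmr1 was at 0 in 2 of these controls and Nova2 in 1, and each was high in a single library.

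Shares within a family do not depend on how libraries are scaled, but they do depend on the length taken for each gene. With the longest annotated transcript as the length instead of merged exons, 14 group shares counted as moved and 58 as the same. That length is 4409 against 8966 bases for Fmr1, 3014 against 6553 for Fxr1 and 2951 against 3766 for Fxr2. Of the summed level of the 4 Elavl genes per kilobase of exon, the 3 neuronal genes made up 98.1% ± 0.786 in batch 1 Cre somas and 98.1% ± 0.240 in batch 2 Cre somas (mean ± SD, n = 4). In central axon Cre libraries their share was 95.7% ± 1.70. In the 4 peripheral axon Cre libraries it was 57.1, 93.8, 87.1 and 76.1%, with library 1 lowest, and in the 3 controls 81.6, 65.5 and 0%. The rest was Elavl1. Of the summed level of all 4 Elavl genes, Elavl3 took a larger share in central axon controls (57.5% ± 3.96) than in central axon Cre libraries (37.99% ± 14.3). The controls gave 59.4, 57.8, 61.1 and 51.97% and the Cre libraries 34.4, 46.2, 19.5 and 51.9%, a narrow gap between the 2 ranges.

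Fxr2 was the main FMRP family mRNA of the Cre somas, with 79.9% ± 2.94 of the family's level in batch 1 and 71.8% ± 9.31 in batch 2. Its share was 75.8% ± 3.81 in central axon Cre libraries. In peripheral axon Cre libraries it was 32.8, 55.8, 30.4 and 50.9%, and the 4 values lay below every Cre soma value. The soma controls differed from the Cre somas. Fxr2 took 47.7% ± 52.2 in batch 1 controls, and in batch 2 controls 44.6% ± 16.2 beside 40.9% ± 20.1 for Fxr1. The share of Fmr1 was 8.53% ± 1.47 and 12.03% ± 4.55 in the 2 sets of Cre somas. It was 14.8% ± 3.99 in central axon and 31.8% ± 12.6 in peripheral axon Cre libraries, and 29.3% ± 19.1 in the peripheral axon controls. Of the summed Nova level, Nova2 made up 67.8% ± 10.9 and 75.3% ± 4.05 in the Cre somas and 36.5% ± 5.67 in central axon Cre libraries, where Nova1 was the larger. Nova1 was also the larger on average in the soma controls, where Nova2 made up 29.3% ± 45.65 (batch 1) and 24.4% ± 24.6 (batch 2). These shares carry no test.

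**Figure D4:**
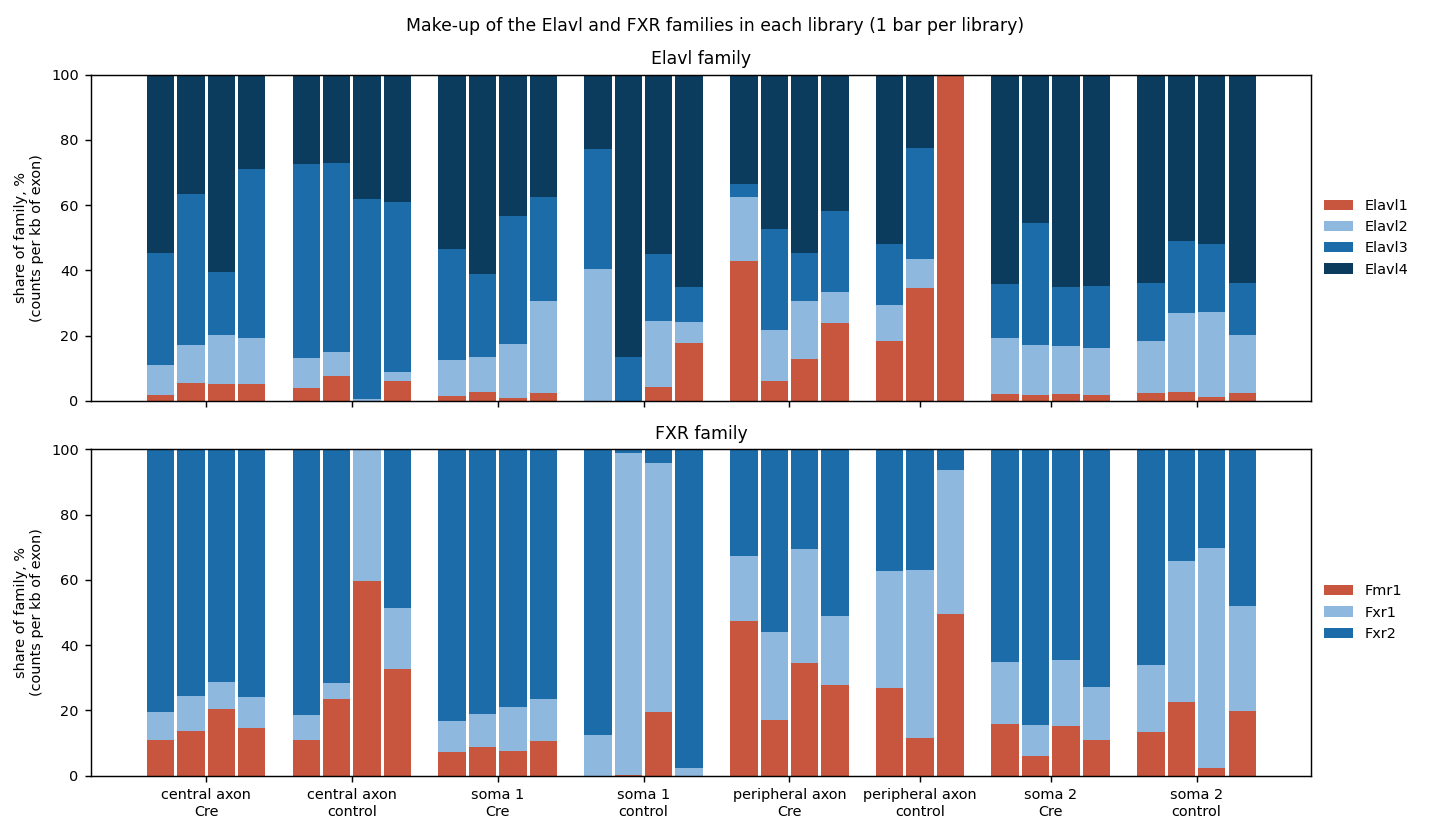
Share of each gene in the summed level per kilobase of exon of its family, in percent, with 1 stacked bar per library, for the 4 Elavl genes and for Fmr1, Fxr1 and Fxr2. Bars are grouped by tissue and genotype. Among the Cre libraries, Elavl1 and Fmr1 take a larger part in peripheral axons than in somas.

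Other RNA-binding proteins were followed through lists chosen with earlier results of these data known. In central axons 5 of 34 further neuronal RNA-binding proteins were called higher than in somas and 2 lower, shares near those over all genes (8.63% and 5.11%), with a median log2 fold change of -0.14. Tia1, a stress granule protein, measured 122 ± 38.9 against 15.1 ± 4.92 normalised CPM (mean ± SD, n = 4 per group; log2 fold change 3.01 ± 0.37, edgeR adjusted p 0.000368). Ptbp1, the splicing repressor of cells outside neurons, was higher (log2 fold change 2.78 ± 0.62, edgeR adjusted p 0.0122), as was Celf5 (log2 fold change 2.27 ± 0.50, edgeR adjusted p 0.0116). Ptbp1 lost its call without central axon replicate 4 (adjusted p 0.0671) and Celf5 without replicate 2 (0.0523). Rbms3 (log2 fold change -1.42 ± 0.40, edgeR adjusted p 0.0332) and Rbms1 (log2 fold change -1.20 ± 0.38, edgeR adjusted p 0.0495) were lower. Rbms3 lost its call in 6 of 8 leave-one-out fits (all but soma replicate 2 and axon replicate 1, adjusted p up to 0.0930, without axon replicate 2). Rbms1 lost its call in 7 of 8 (all but axon replicate 1, up to 0.146). Celf4 and Qk were the other genes called higher. The calls of Tia1, Ptbp1, Celf5, Rbms3 and Rbms1 ended when the 4 groups of the batch shared 1 fit.

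In peripheral axons 8 of the 34 were called higher and 4 lower, beside 18.7% and 12.5% of all genes, with a median of -0.25. Qk, the quaking gene of myelinating glia, was 988 ± 688 against 16.8 ± 6.55 normalised CPM (log2 fold change 5.88 ± 0.59, edgeR adjusted p 5.58e-05). Ptbp1 (75.6 ± 37.8 against 7.52 ± 1.64 normalised CPM, log2 fold change 3.33 ± 0.42, edgeR adjusted p 0.000186) and Celf2 (log2 fold change 2.57 ± 0.35, edgeR adjusted p 0.000317) were higher, as were Msi1, Msi2, Mbnl1, Tia1 and Pum2. Rbfox1, a relative of Rbfox3 that is made in neurons and muscle, was lower (108 ± 55.5 against 493 ± 52.2 normalised CPM, log2 fold change -2.19 ± 0.37, edgeR adjusted p 0.00127). Pcbp3 (log2 fold change -2.20 ± 0.40, edgeR adjusted p 0.00189), Celf4 (log2 fold change -1.93 ± 0.47, edgeR adjusted p 0.00971) and Pcbp1 were lower as well. Celf4 lost its call when the 4 groups of the batch shared 1 fit (adjusted p 0.171).

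Of the proteins of RNA transport and granules, 8 of 21 were called higher in peripheral axons than in somas and 2 lower, beside 18.7% and 12.5% of all genes, with a median of 0.47. The 3 IMP genes, whose proteins bind mRNAs of localised translation such as beta-actin, were all higher. Igf2bp2 was 86.3 ± 33.6 against 3.65 ± 1.55 normalised CPM (log2 fold change 4.56 ± 0.43, edgeR adjusted p 4.15e-05), and Igf2bp1 was 11.8 ± 4.70 against 0.268 ± 0.205 (log2 fold change 5.41 ± 0.80, edgeR adjusted p 0.000545). Pabpc1, the cytoplasmic poly(A)-binding protein, was higher (log2 fold change 1.85 ± 0.30, edgeR adjusted p 0.000920), as were Purb, Syncrip, Ddx6, Ybx1 and Igf2bp3. Stau2, a double-stranded RNA-binding protein of neuronal transport granules, was lower (27.5 ± 12.9 against 84.1 ± 13.5 normalised CPM, log2 fold change -1.60 ± 0.35, edgeR adjusted p 0.00548), and so was Smn1 (log2 fold change -1.16 ± 0.32, edgeR adjusted p 0.0176). Smn1 lost its call without soma replicates 5 (0.0523), 7 (0.0516) or 8 (0.0529). With the 4 groups of the batch in 1 fit the calls of Stau2 (adjusted p 0.234), Smn1 (0.397) and Igf2bp1 (0.0554) ended.

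Of 8 partners of FMRP, none was called in central axons and 2 were called higher in peripheral axons, beside 18.7% of all genes. Cyfip1, which links FMRP to the cap-binding protein and to actin, was 161 ± 116 against 29.9 ± 4.01 normalised CPM (log2 fold change 2.42 ± 0.43, edgeR adjusted p 0.00173). Tdrd3 was 28.6 ± 8.39 against 12.98 ± 3.20 (log2 fold change 1.14 ± 0.37, edgeR adjusted p 0.0368), a call lost in 6 of 8 leave-one-out fits (all but peripheral replicates 2 and 3, up to 0.133, without soma replicate 8). RLE scaling (0.0536), no low-count filter (0.104) and the fit of all 4 groups (0.497) ended it too. Of the mRNAs known as FMRP targets, Camk2a was lower in central axons (log2 fold change -2.05 ± 0.41, edgeR adjusted p 0.00774) and Bsn in peripheral axons (log2 fold change -1.96 ± 0.47, edgeR adjusted p 0.00882), and the other targets tested, 5 in central and 4 in peripheral axons, were not called. The Camk2a call was lost in the fit of all 4 groups (adjusted p 0.9999).

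The difference between branches was called for 12 genes of the other protein lists: 6 of 34, 5 of 21 and 1 of 8, beside 13.1% of all genes. Relative to soma, Celf4 (log2 fold change 3.30 ± 0.55, edgeR adjusted p 0.00110), Rbfox1 (log2 fold change 1.91 ± 0.50, edgeR adjusted p 0.0174) and Stau2 (log2 fold change 2.69 ± 0.47, edgeR adjusted p 0.00163) were higher in the central branch. Qk (log2 fold change -3.52 ± 0.91, edgeR adjusted p 0.0160), Mbnl1 (log2 fold change -2.21 ± 0.50, edgeR adjusted p 0.00741), Celf2 (log2 fold change -2.03 ± 0.51, edgeR adjusted p 0.0136), Purb (log2 fold change -2.47 ± 0.44, edgeR adjusted p 0.00180), Igf2bp2 (log2 fold change -3.36 ± 0.75, edgeR adjusted p 0.00721) and Ddx6 (log2 fold change -2.16 ± 0.57, edgeR adjusted p 0.0182) were lower, as were Pum2, Pabpc1 and Ago2. Rbfox1 lost its call without peripheral replicate 3 (0.0538), Qk without batch 1 soma replicate 4 (0.0535), and Ago2 in 11 of 16 such fits (central replicates 1, 3 and 4, batch 1 somas 3 and 4, peripheral replicates 1, 3 and 4 and batch 2 somas 5, 7 and 8, adjusted p up to 0.107). In the fit of all 8 groups none of Celf4, Rbfox1, Stau2, Qk, Mbnl1, Celf2, Purb, Igf2bp2, Ddx6 and Ago2 was called, the lowest adjusted p being that of Celf4 (0.432). Between Cre and control libraries, Celf5 in batch 1 somas was the only gene of the 5 lists to be called. It had at most 1 count in any of those controls, and counted against the floor of 3 counts per library it was at least 1.96-fold higher in Cre libraries (edgeR adjusted p 0.0187). That call was lost without control replicate 1, a or b and in the replicate-blocked fit, where 0 genes were called in that comparison.

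**Figure D5:**
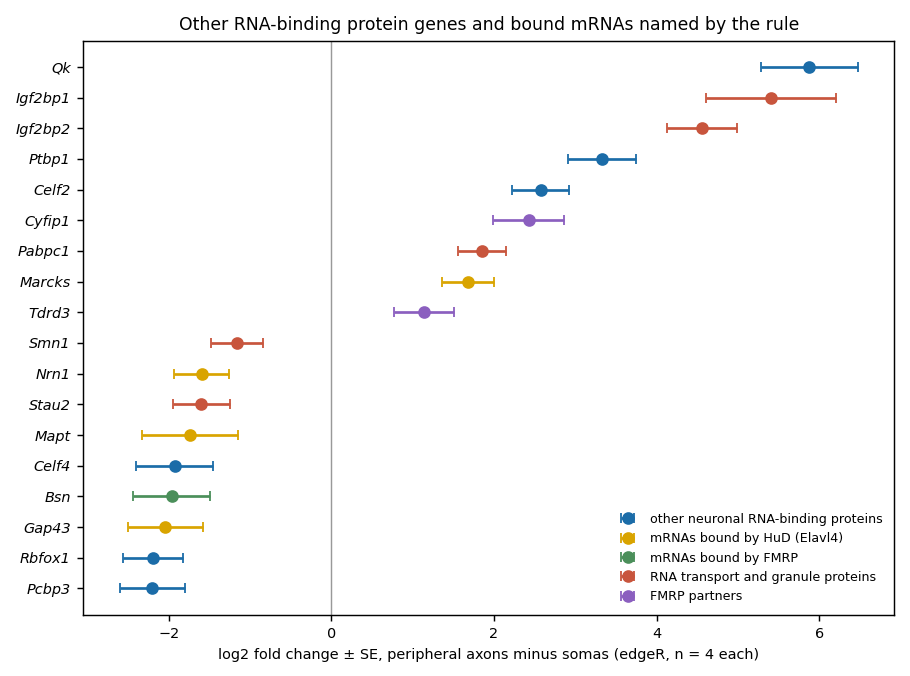
Log2 fold change with its standard error of the 18 list genes named by their adjusted p, peripheral axons minus batch 2 somas, 4 Cre libraries per group, coloured by list. Qk (5.88) and Igf2bp1 (5.41) are highest, and Pcbp3 (-2.20) and Rbfox1 (-2.19) lowest.

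Because Elavl4 fell in peripheral axons, the mRNAs known to be bound by its protein HuD were looked at in the same libraries, together with the U-rich stretches in their 3′ untranslated regions. Of 6 such mRNAs, 3 were called lower in peripheral axons (Gap43, Nrn1 and Mapt) and 1 higher (Marcks), beside 12.5% and 18.7% of all genes, with a median log2 fold change of -1.67. In central axons none of the 6 was called, and the median was -0.98. For the general neuron markers the median in peripheral axons was -1.58, and for the nociceptor markers -1.70, near that of the 6 mRNAs there. The motif searched was TTTNTTT on the sense strand of the longest annotated 3′ untranslated region. For each called mRNA the first match is printed with its surroundings, 30 bases from the GENCODE M21 transcripts. The motif is in capitals, so that the matched stretch can be seen.
Gap43 (chr16:42248802-42248831, minus strand, GRCm38): tggcttaaacaTTTGTTTcttggtgttgtt
Nrn1 (chr13:36726437-36726466, minus strand): ttttcttcttcTTTTTTTtttcttcttttt
Mapt (chr11:104329650-104329679, plus strand): gacctctgcctTTTCTTTtatctaagtgga
Marcks (chr10:37136048-37136077, minus strand): tttccccccagTTTGTTTgttggagtggtg

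Such letters are common. Gap43 holds 2 matches in 587 bases, and 55.3% of the first 587 bases of the 13433 3′ untranslated regions of at least that length hold one. Nrn1 holds 12 matches in 1267 bases (79.8% of windows of that length), Mapt 5 in 3903 (98.1%) and Marcks 43 in 2733 (95.2%). Of the 2 mRNAs not called in peripheral axons, Bdnf holds 19 in 2855 bases (95.6%) and Cdkn1a holds none in 1334 bases, where 81.2% do. A match is a description of the sequence and not a measured binding site.

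Gap43, a growth-cone protein, ran from 342 to 1339 CPM in the peripheral axon Cre libraries and from 2152 to 3681 in the batch 2 Cre somas (log2 fold change -2.04 ± 0.46, edgeR adjusted p 0.00663). Nrn1, which codes for neuritin, ran from 176 to 324 CPM in axons and from 529.7 to 896 CPM in somas (log2 fold change -1.60 ± 0.33, edgeR adjusted p 0.00430). Mapt, the tau gene, ran from 93.4 to 928 CPM in axons and from 879.6 to 1611 CPM in somas, with overlap (log2 fold change -1.74 ± 0.59, edgeR adjusted p 0.0431). The Mapt call was lost in 6 of 8 leave-one-out fits (all but peripheral replicates 1 and 2, adjusted p up to 0.0973, without soma replicate 6), and in the fit of all 4 groups (0.0526). Marcks, an actin-regulating protein made in many cell types, went the other way: 1634 to 2467 CPM in axons, 1353 to 2522 in the axon controls and 389.8 to 737 in somas (log2 fold change 1.68 ± 0.32, edgeR adjusted p 0.00241). Gap43 is also one of the general neuron markers, 9 of which were lower in the same comparison. Marcks differed between the branches as well (log2 fold change -1.82 ± 0.45, edgeR adjusted p 0.0126), a call lost in the fit of all 8 groups (adjusted p 0.843).

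The genes whose pattern over all 31 libraries was most like each member were sought among 13058 genes, by Pearson's r of log2(normalised CPM + 1) after centring on the mean of the batch. The libraries share tissue, depth and genotype, so these are descriptions without a test. Among the genes most like Elavl4 were Tubb3 (r = 0.961), the neuronal beta-tubulin, and Soga3, and Tubb3 and Chchd10 were among those most like Elavl3. Elavl2 was most like Sestd1 (0.924), Reep1 and Ctxn1, and Rbfox3 like Olfm1 (0.902), Samd14 and Grik1. Nova1 had the loosest match, Cxadr (0.794), followed by Trps1 and Calb2, and Nova2 was most like Pde4a (0.868), Slc8a1 and Sptb. Elavl1 was most like Rsl1d1 (0.888), Fmnl2 and Nup85. Fmr1 was most like Ndufaf4 (0.914), Zfp30 and Ankib1, Fxr1 like Ppp1r14b (0.861), Ndufv2 and Ankrd11, and Fxr2 like Gpd1l (0.880), Mvd and Homer2. Among the members themselves the closest pairs were Elavl3 with Elavl4 (0.875), Elavl3 with Rbfox3 (0.837) and Elavl4 with Rbfox3 (0.817). Single control libraries lie far out on this scale. In batch 1 soma control replicate 3 the TMM scaling took Elavl4 from 1408 to 25420 CPM and Elavl3 from 280 to 5060. Peripheral axon control replicate 4 held no count of either gene. How far the r values rest on these libraries was not tested.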

How the data were processed

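TRAP RNA of sub-nanogram amount was amplified with the SMART-Seq v4 kit, per the labels' protocols. STAR 2.7.2b and mm10 are named in the submitters' processing notes. The counting tool, its strand setting and the handling of duplicates and multimapping reads are not given in the sources used here. The authors deposited raw gene counts in 2 tables, 1 per batch, for 55536 Ensembl identifiers, all matched to GENCODE M21. One column name stood over 2 batch 1 soma control columns, which entered as replicates a and b of that group. Every other library was matched by its column name, and no column was left unmatched. None of 45 replicate pairs agreed within sampling noise (lowest chi-square per degree of freedom 22.5).

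The members and lists were chosen with earlier results of these data known. From the counts, CPM used library totals, and levels between genes were divided by the length of merged exons. The 7 comparisons used edgeR 4.0.16 in R 4.3.3 (filterByExpr, TMM, glmQLFit, glmQLFTest, Benjamini-Hochberg over all genes tested, threshold 0.05), each on the groups compared. On simulated data, 85% (central axon Cre against control, 14189 genes) and 86% (central axon against soma, 14480 genes) of 200 genes changed by a log2 of 3 were recovered. Both simulations used 1 and the same spread between libraries, near that fitted for central axon against soma (common coefficient of variation 0.589). The fitted value for central axon Cre against control was 1.16. The 85% therefore does not give the recovery to be had in that comparison. Alternatives were RLE or library-size scaling, no filter, DESeq2 1.42.0, wider fits, a replicate block and leaving out each library. Genes of the lists were named by a rule: in each comparison and list, up to 3 per direction with the smallest adjusted p under 0.05. Other genes of a list are named as called without values, and some genes that these rules name are not reported here. Likeness used genes with at least 10 counts in at least 16 libraries. Low depth limits Nova1 and Nova2 most outside central axons. Amplified reads are not independent molecules, so the floor of 3 counts covers counting error only.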

Additional observations from a re-analysis of the deposited data

Results flagged for a closer look

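Within groups of 4, 7 of 70 tests found 1 library far from the other 3 by Dixon's gap test, where chance flags about 1 in 20. Among the Cre libraries, Elavl3 in batch 2 soma replicate 6 was 528.8 CPM against 215 in the next. Nova1 in the same library was 1.86 CPM against 1.19, and Fxr2 in central axon replicate 3 was 177 CPM against 133. Among the controls, Elavl3 in central axon replicate 4 was 363 CPM, below the next at 611. The batch 1 soma controls gave the other 3: Elavl1 was 656 CPM in library b against 103 in the next, Fmr1 was 108.8 CPM in library a against 0.971, and Nova2 was 119.6 CPM in library a against 0.647.

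The axon-to-soma difference itself differed between the central and peripheral branch for Nova1 (2.58 on the log2 scale, edgeR adjusted p 0.0477) and Nova2 (3.13, edgeR adjusted p 0.0281), by the test of the difference described above. Both calls were lost in several fits that leave out 1 library. The central axon libraries include spinal cord tissue. Their controls without Cre held Nova1 at 174 to 339 CPM, against 76.98 to 141 in the Cre libraries. The part of RNA from the surrounding tissue in this difference was not tested.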

How the results depend on the processing

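Counts of genes called moved with the fit. In central axons against somas the count was 1990. It was 3752 with DESeq2 and 15 in 1 fit of the batch's 4 groups, and from 822 to 2717 without 1 library. With library size alone the split was 2146 higher and 293 lower, against 1250 and 740, and the median over all genes moved from 0.05 to 0.50. In peripheral axons against somas 4818 became 1404 with all 4 groups, and 3220 to 6055 without 1 library. The split of 2889 higher and 1929 lower became 2665 and 2366 with RLE (median -0.14) and 3309 and 1469 with library size alone (0.17). The difference between branches, 2187, became 3619 with DESeq2 and 1 with all 8 groups, and 1394 to 2856 without 1 library.

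Between Cre and control in central axons the count of 2 became 34 without a filter, 437 with DESeq2 and 1 with all 4 groups, and 0 to 5 without 1 library. In peripheral axons 0 became 88 with DESeq2 and 1 with all 4 groups, and stayed 0 without any 1 library. In batch 1 somas 516 became 2244 with library size alone, 1700 without a filter, 1498 with DESeq2 and 2114 with all 4 groups, and 0 to 3094 without 1 library. In batch 2 somas 0 became 21 with RLE, 257 with library size alone, 162 without a filter, 1527 with DESeq2 and 175 with all 4 groups, and 0 to 1826 without 1 library. The cause was not tested.

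The sign turned for 3 uncalled members: Fmr1 in central axons (-0.25 without central axon replicate 3, -0.25 to 0.29 without 1 library), Nova2 in peripheral axons (0.10 with library size alone, -1.12 to 0.18 without 1 library) and the difference of Elavl2 between branches (-0.030 with RLE and -0.026 with DESeq2, -0.24 to 0.58 without 1 library).

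Replicate numbers were not used as pairs in the main fits, as in no comparison were all same-numbered correlations above 0.1. That rule cannot exclude that same-numbered libraries came from the same animals. In central axons against somas the same-numbered r was 0.199, -0.0097, 0.0904 and 0.178. Between libraries of different number there it ran from -0.234 to 0.182. With the replicate block the count became 1 in central axons and 0 in batch 1 somas for Cre against control, and 2226 for central axons against somas, where the Elavl2 call was lost (adjusted p 0.0587) and Rbfox3 gained one (0.0387). For peripheral axons against somas, and so for the difference between branches, no blocked fit was possible, because peripheral axons and batch 2 somas share no replicate numbers.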
